A study of Mus musculus with 6 samples.

Results

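The genes described here encode the subunits of the oxidative phosphorylation (OXPHOS) machinery, measured by bulk RNA sequencing in tuft-like and non-tuft-like medullary thymic epithelial cells (mTEC). They were selected by symbol, taking the protein-coding genes that the pattern for complex I (Nduf), complex II (Sdh), complex III (Uqcr), complex IV (Cox) and ATP synthase (Atp5) subunits matched, together with the protein-coding genes of the mitochondrial genome. This gave 93 genes among 52636 gene rows, of which 80 are nuclear and 13 mitochondrial. By complex, 36 nuclear and 7 mitochondrial genes belonged to complex I and 4 nuclear genes to complex II. Complex III had 8 nuclear and 1 mitochondrial gene, complex IV 15 and 3, and ATP synthase 17 and 2. The symbols carry some history. Ndufa4 was named as a complex I subunit and is now placed with complex IV, and Atp5s, which the pattern includes, is not regarded as a core ATP synthase subunit. Both populations were sorted from thymi of C57BL/6 mice at 6 weeks of age, with 3 libraries each. Their shared phenotype was binding of UEA, MHCIIlo, and absence of CD80, Sca1 and CD63. CD117 and CD66a were both present on the tuft-like cells and both absent from the non-tuft-like cells, which are therefore a residual gate and not a defined cell type. Neither population carried a transgene or had been treated. Nothing states whether replicate libraries came from separate mice, so the p-values measure the spread between libraries, which may be technical.

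Oxidative phosphorylation takes place in the inner mitochondrial membrane. Complex I and complex II pass electrons from NADH and succinate to ubiquinone, complex III passes them on to cytochrome c and complex IV to oxygen. Complexes I, III and IV pump protons, and ATP synthase uses the resulting gradient to make ATP. All complexes other than complex II are built from products of both the nuclear and the mitochondrial genome, and several complex IV subunits exist as a broadly expressed form and a form restricted to muscle, lung or testis. The medulla of the thymus also presents proteins of other tissues to developing T cells, and tuft-like mTEC are a minor subset that shares its expression programme with the chemosensory tuft cells of mucosal epithelia.

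The libraries held between 20097617 and 48369825 reads on genes. The identity of the sorted cells was checked with marker genes, and 10 of 10 tuft cell markers were called higher in tuft-like mTEC by edgeR (median log2 fold change 4.34), whereas 6 of 8 mature mTEC markers and 4 of 8 keratinocyte markers were called lower. Tuft-like replicate 3 stood apart. It had the lowest share of reads assigned to no gene (19.7%, against 47.6% and 61.6% in the other tuft-like libraries and 34.4% to 52.5% in the non-tuft-like libraries) and the lowest TMM scaling factor (0.789, against 0.973 to 1.21). Of the marker lists of other cell types, the summed level of 6 endothelial markers was 37.8 to 63.7 CPM in non-tuft-like and 172.7 to 344.8 CPM in tuft-like libraries, with Tek as the called gene, and that of 4 B cell markers 16.5 to 20.4 and 61.5 to 101.5 CPM. The B cell sum rested on Cd79b, the called gene, while the other 3 markers had log2 fold changes below zero. Sums were lower in the tuft-like libraries without overlap for macrophages and dendritic cells (214.8 to 343.5 against 124.0 to 188.3 CPM), erythroid cells (236.2 to 382.5 against 88.0 to 164.0) and proliferation (162.4 to 225.1 against 68.6 to 113.3). The part of these cells in the subunit levels was not tested. Levels below are CPM, read counts scaled to a common library total, after TMM scaling, so a low factor raises all values of that library. Among genes of at least 10 CPM, its level was a median 1.34 times the mean of tuft-like replicates 1 and 2.

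No OXPHOS subunit gene passed the test in either direction. Of the 93 genes, 91 had enough reads to be tested, and edgeR's quasi-likelihood test called 0 of them at a false discovery rate (FDR) of 0.05, whereas 2.11% of all 32496 genes tested were called (1.16% higher and 0.951% lower in tuft-like mTEC). At an unadjusted p under 0.05 there were 5 subunit genes, namely Ndufa1, Ndufa4, Ndufb3, Sdha and Cox6b2, against a background of 8.97%. DESeq2 called Sdha higher and Cox6b2 lower, and it called 10.2% of the 18579 genes to which it gave an adjusted p. limma voom called Sdha higher (2.78% of all genes tested). Of the 74 nuclear subunits with a mean of at least 10 CPM, edgeR called 0, beside 5.84% of all genes at that level, and without tuft-like replicate 3 it called 0 of the subunits, beside 2.45% of all genes. Groups of libraries that did not overlap were seen for 8 genes that were higher (Ndufa1, Ndufa8, Ndufb2, Ndufb3, Sdha, Uqcrh, Cox7a1 and Cox8a) and 2 that were lower in tuft-like mTEC (Ndufa4 and Cox6b2), where 7.18% and 8.85% of all genes tested behaved in this way. Among nuclear subunits of at least 10 CPM these were 7 higher and 1 lower of 74, and 28.2% of all genes at that level were without overlap in either direction. The share among subunits was thus near or below that of other genes. In bulk samples, a lower share of cells that express a gene and less RNA of that gene per cell cannot be told apart.

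The summed level of the 80 nuclear genes was 11680, 11130 and 9127 CPM in non-tuft-like replicates 1 to 3, and 8825, 11260 and 18390 CPM in tuft-like replicates 1 to 3. The means were 10650 ± 1342 and 12830 ± 4972 CPM (SD, n = 3 each). Tuft-like replicate 3 alone lay above the non-tuft-like range, and tuft-like replicate 1 lay just below it. As a share of all reads on genes, which no scaling factor enters, the nuclear subunits took 1.14%, 1.08% and 1.0% in the non-tuft-like libraries and 1.06%, 1.13% and 1.45% in the tuft-like libraries. The same library was thus highest on that scale as well. In the plot of nuclear subunit genes by library, tuft-like replicate 3 was the highest library for 70 of the 74 nuclear genes of at least 10 CPM.

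**Figure D1:**
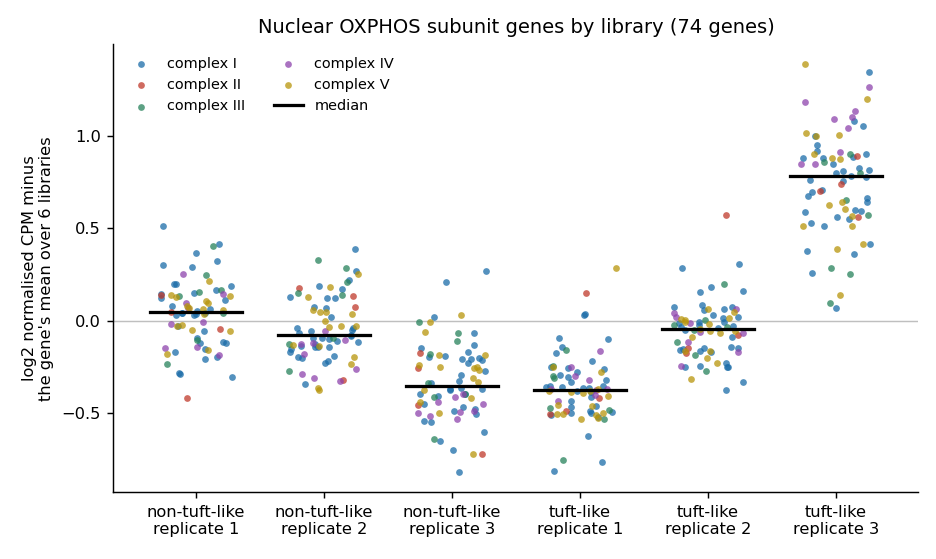
Each point is a nuclear OXPHOS subunit gene of at least 10 CPM (74 genes), placed by library on the x axis and by its log2 normalised CPM minus that gene's mean over the 6 libraries on the y axis. Colours mark the complex and black bars the median of a library. Tuft-like replicate 3 is the highest library for 70 of the 74 genes, across every complex, whereas the medians of tuft-like replicates 1 and 2 lie close to those of the non-tuft-like libraries.

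The direction of the nuclear genes as a group followed that library. Over all libraries, the median log2 fold change of tuft-like over non-tuft-like mTEC was 0.31 for the 79 nuclear genes tested, with 67 above and 12 below zero, beside a median of 0.02 over all genes tested and -0.01 over the 11593 genes of at least 10 CPM. Without tuft-like replicate 3, the median of the nuclear genes was -0.17, with 19 of 80 above and 61 below zero. Beside it stood -0.20 for the genes of at least 10 CPM and 0.14 over all genes tested in that fit. The nuclear subunits therefore lay above the other well-measured genes with that library and level with them without it. For the 74 nuclear genes of at least 10 CPM, tuft-like replicate 3 exceeded the mean of the other tuft-like libraries by a median factor of 1.91. The part that the share of unassigned reads played in this was not tested.

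**Figure D2:**
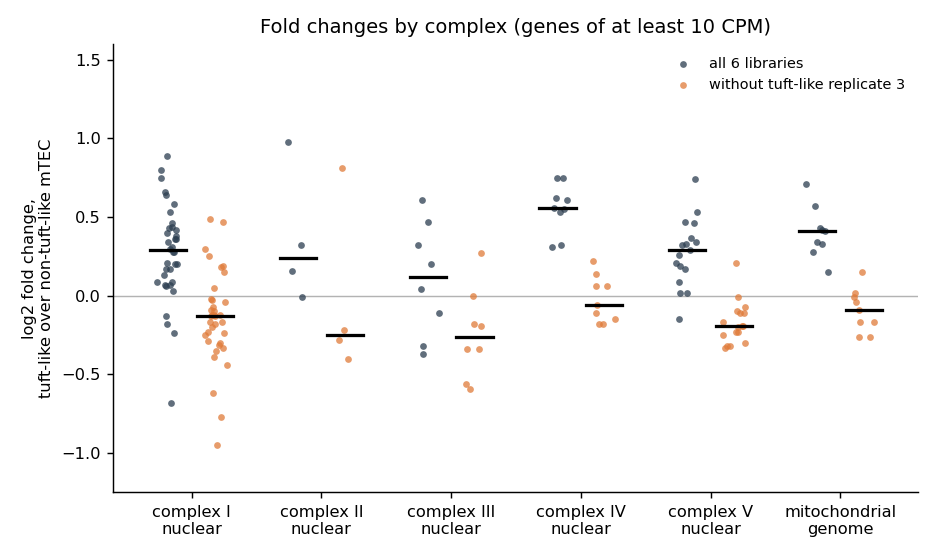
Log2 fold change of tuft-like over non-tuft-like mTEC (y axis) for each gene of at least 10 CPM, by complex and genome (x axis), from all 6 libraries (dark points) and without tuft-like replicate 3 (orange points). Black bars are medians, and in all 6 columns the median is above 0 with that library and below 0 without it, with Sdha as the outlying complex II gene in both.

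Complex I is the largest complex and the main entry point of electrons. Its 36 nuclear genes had a median log2 fold change of 0.29 (32 above and 4 below zero), which became -0.13 without tuft-like replicate 3. The furthest upward was Ndufb3, an accessory subunit of the membrane arm, with 46.0, 51.1 and 32.2 CPM in the non-tuft-like and 58.0, 64.4 and 117.8 CPM in the tuft-like libraries. Its log2 fold change was 0.89 with a standard error (SE) of 0.35, and the adjusted p in edgeR was 0.397. Ndufa1, a small X-linked accessory subunit needed for assembly of the membrane arm, was at 94.6, 95.3 and 67.3 against 111.9, 135.1 and 185.0 CPM, with a log2 fold change of 0.75 ± 0.30 (SE) and an adjusted p of 0.409 in edgeR. For both genes every tuft-like library lay above every non-tuft-like library, and without tuft-like replicate 3 the log2 fold changes were 0.47 and 0.49.

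Ndufa4 went the other way. It was at 190.1, 186.7 and 171.4 CPM in the non-tuft-like and at 83.9, 109.8 and 149.4 CPM in the tuft-like libraries, so that its highest tuft-like library, replicate 3, was still below the lowest non-tuft-like library. The log2 fold change was -0.68 ± 0.29 (SE) with an adjusted p of 0.498 in edgeR, and -0.95 without tuft-like replicate 3, where most other subunits were also below zero. When libraries were scaled to the summed counts of the nuclear subunits themselves, Ndufa4 was at -0.92 and was called lower (3.01% of all genes called), and the median nuclear subunit was at 0.02. The gene lies at chr6:11900292-11907497 (mm10, minus strand) and shares no exon sequence with an annotated neighbour. Because a ratio between a pair of genes in the same library does not depend on the scaling factor, Ndufa4 was also set against other subunits. Its ratio to Ndufa9, a complex I subunit, was 1.41, 1.22 and 1.32 in the non-tuft-like and 0.578, 0.635 and 0.520 in the tuft-like libraries. Its ratio to the complex IV subunit Cox6a1 was 0.971 to 1.28 in the non-tuft-like against 0.433 to 0.574 in the tuft-like libraries, and its ratio to Cox4i1 0.50 to 0.617 against 0.233 to 0.357. These ranges did not overlap. A two-sided exact permutation test gave p = 0.10 for each, the smallest value that 3 against 3 libraries allow, and 0.125 after adjustment over the 10 ratios computed, which were chosen after the levels had been seen.

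Complex II, succinate dehydrogenase, links the tricarboxylic acid (TCA) cycle to the respiratory chain and is the only complex without a mitochondrially encoded subunit. None of its 4 genes was called by edgeR, and the levels of Sdha differed most between the populations. Sdha, the flavoprotein that oxidises succinate, was at 373.3, 399.2 and 302.9 CPM in the non-tuft-like and at 552.7, 740.9 and 832.3 CPM in the tuft-like libraries, so that the lowest tuft-like library exceeded the highest non-tuft-like library. The log2 fold change was 0.98 ± 0.31 (SE, 95% confidence interval 0.30 to 1.67) with an unadjusted p of 0.00944 and an adjusted p of 0.205 in edgeR, and it was 0.81 without tuft-like replicate 3. The gene lies at chr13:74322254-74350280 on the minus strand, overlaps no other annotated exon and shares no stretch of 50 bases with another annotated transcript. Besides DESeq2 and limma voom, edgeR called Sdha higher when only library size was used for scaling (3.22% of all genes called), with an offset for length and GC content (2.79%), and with a filter of at least 10 CPM (12.9%), where Ndufa1 and Ndufb3 were called higher and Ndufa4 lower as well.

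The partners of Sdha in the complex had smaller log2 fold changes. Sdhb, the iron-sulphur subunit, was at 189.6, 188.5 and 152.7 against 122.9, 152.3 and 253.5 CPM, with a log2 fold change of -0.01 and a 95% confidence interval of -0.72 to 0.71. The membrane anchors Sdhc and Sdhd had log2 fold changes of 0.16 (-0.61 to 0.93) and 0.32 (-0.51 to 1.14), so that each of the 3 intervals reaches 0.71 or further. Within libraries, the ratio of Sdha to Sdhb was 1.97, 2.12 and 1.98 in non-tuft-like and 4.50, 4.86 and 3.28 in tuft-like mTEC, with means of 2.02 ± 0.0818 and 4.22 ± 0.828 (SD, n = 3 each). The ratios to Sdhc (6.80 to 7.41 against 9.85 to 15.1) and to Sdhd (1.77 to 2.04 against 2.20 to 4.02) did not overlap either, with the same exact permutation p of 0.10. The ratio of Sdhb to Sdhd, a pair without Sdha, was 0.878 to 1.03 against 0.67 to 0.827. It did not overlap either, with an exact permutation p of 0.10, so such separation was not particular to Sdha. The ratio of the ATP synthase subunits Atp5a1 and Atp5b, computed for comparison, overlapped at 0.501 to 0.541 and 0.522 to 0.577 (exact permutation p = 0.20).

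**Figure D3:**
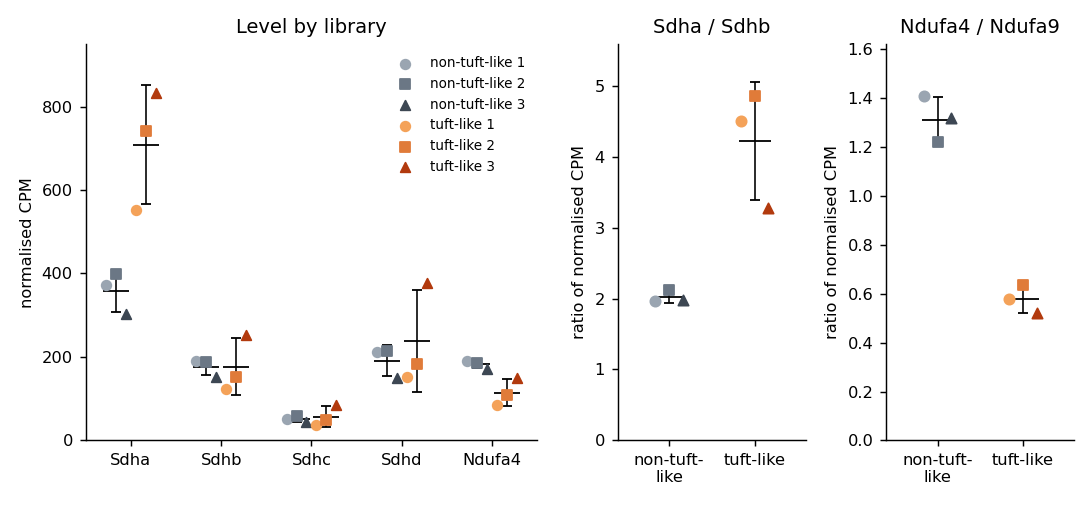
Left, normalised CPM (y axis, from 0) of the 4 complex II genes and Ndufa4 in each library, with black bars for mean and SD of 3 libraries. Right, ratios within each library, in which Sdha to Sdhb lies between 1.97 and 2.12 in non-tuft-like and between 3.28 and 4.86 in tuft-like mTEC, and Ndufa4 to Ndufa9 between 1.22 and 1.41 against 0.520 to 0.635.

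The promoters of genes whose products share a complex need not be alike. Those of Sdha, its partners Sdhb and Sdhd, and Ndufa4 are shown so that these genes can be compared. No window was matched for Sdhc. The windows are RefSeq sequence of GRCm38.p6, from 250 bases before to 50 bases after the start, written 5′ to 3′ on the gene's strand. Capitals mark a loose form of the motif of the respiratory regulator NRF1, which reads GCGCA, then any base, then GCGC, and CCGGAAG, the motif of ETS factors such as GABP, each searched on both strands. The window of Sdha is chr13:74350191-74350490 (minus strand), of Sdhb chr4:140961021-140961320 (plus), of Sdhd chr9:50603800-50604099 (minus) and of Ndufa4 chr6:11907401-11907700 (minus).
Sdha: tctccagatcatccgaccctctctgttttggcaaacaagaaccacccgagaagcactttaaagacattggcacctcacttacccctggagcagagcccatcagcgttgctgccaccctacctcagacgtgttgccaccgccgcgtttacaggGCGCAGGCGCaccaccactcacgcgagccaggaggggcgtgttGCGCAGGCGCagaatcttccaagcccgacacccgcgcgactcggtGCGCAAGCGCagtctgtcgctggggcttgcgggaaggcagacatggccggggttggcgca
Sdhb: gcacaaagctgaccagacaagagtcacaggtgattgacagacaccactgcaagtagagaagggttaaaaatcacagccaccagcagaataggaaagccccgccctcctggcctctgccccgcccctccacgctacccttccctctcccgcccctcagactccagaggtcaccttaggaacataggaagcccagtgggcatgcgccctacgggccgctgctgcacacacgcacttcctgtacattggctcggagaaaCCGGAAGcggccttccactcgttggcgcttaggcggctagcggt
Sdhd: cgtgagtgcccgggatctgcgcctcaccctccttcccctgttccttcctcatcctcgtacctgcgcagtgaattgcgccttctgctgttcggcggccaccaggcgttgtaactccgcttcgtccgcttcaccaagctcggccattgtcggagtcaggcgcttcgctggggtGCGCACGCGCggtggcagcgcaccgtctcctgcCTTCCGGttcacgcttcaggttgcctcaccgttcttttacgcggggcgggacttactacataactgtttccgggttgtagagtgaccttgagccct
Ndufa4: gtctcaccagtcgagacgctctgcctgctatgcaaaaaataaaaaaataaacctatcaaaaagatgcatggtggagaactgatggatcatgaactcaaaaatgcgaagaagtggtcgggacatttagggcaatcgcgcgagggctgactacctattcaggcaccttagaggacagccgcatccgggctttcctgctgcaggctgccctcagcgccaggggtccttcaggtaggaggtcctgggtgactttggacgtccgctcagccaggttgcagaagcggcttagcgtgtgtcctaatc

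The Sdha window held 3 matches to the loose NRF1 form and no CCGGAAG, that of Sdhb held 1 CCGGAAG, that of Sdhd 1 of each, and that of Ndufa4 neither. The strict NRF1 form, a palindrome with T as the free base, was in none of these 4 windows. Windows were matched for 67 of the 80 nuclear genes. Of these, 25.4% held the loose NRF1 form, against 5.19% of the windows of all 27025 genes in the RefSeq table, and 7.5% against 1.07% held the strict form, which the loose form includes. CCGGAAG was found in 23.9% against 9.93%, AAGATGGC, bound by YY1, in 14.9% against 3.19%, and the SP1 box GGGCGG in 40.3% against 38.2%. A match is a description of the letters and not a bound site.

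In complex III the median log2 fold change of the 8 nuclear genes was 0.12, with 5 above and 3 below zero, and -0.27 without tuft-like replicate 3, with 2 above and 6 below. Uqcrh, the hinge protein that holds cytochrome c1, was at 105.2, 102.5 and 98.1 against 111.1, 141.9 and 215.0 CPM, without overlap (log2 fold change 0.61 ± 0.30 SE, adjusted p = 0.653 in edgeR). Without tuft-like replicate 3 its log2 fold change was 0.27. Uqcrc2, a core protein of the complex, was at 178.1, 188.4 and 149.3 against 107.3, 131.7 and 160.4 CPM (log2 fold change -0.37 ± 0.27). Its exons overlap a gene on the other strand over 504 bases, and without a stated strand setting reads of both cannot be told apart there.

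Complex IV, which reduces oxygen, had the largest nuclear median, 0.56 over 14 genes tested, and -0.06 without tuft-like replicate 3. The broadly expressed Cox8a had the highest level per length of the 15 nuclear complex IV genes that the symbol pattern matched, 426.1 CPM per kb of transcript in non-tuft-like and 716.9 CPM per kb in tuft-like mTEC. Its libraries were at 257.0, 243.8 and 202.3 against 261.1, 300.4 and 621.4 CPM (log2 fold change 0.75 ± 0.37 SE, adjusted p = 0.651 in edgeR), so that the highest non-tuft-like and the lowest tuft-like library nearly met. Cox6c was at 149.6 to 190.1 against 176.9 to 476.8 CPM, with overlapping libraries and a log2 fold change of 0.75 ± 0.39. Without tuft-like replicate 3, the log2 fold changes of Cox8a and Cox6c were 0.22 and 0.14. At the other end of the nuclear complex IV genes of at least 10 CPM stood Cox7b. It was at 48.2 to 80.7 against 52.5 to 121.8 CPM, with a log2 fold change of 0.31. The rarely counted Cox6b2, Cox8b and Cox8c lay lower, at -3.95, -1.21 and -0.19.

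In both populations the broadly expressed forms of complex IV subunits prevailed. Per kb of transcript, Cox6a1 was at 277.9 and 399.9 CPM in non-tuft-like and tuft-like mTEC, whereas the heart and muscle form Cox6a2 was at 0.595 and 0.385 and had no read in 4 of 6 libraries. Cox7a2 was at 181.9 and 268.2 CPM per kb and its muscle form Cox7a1 at 2.43 and 8.04. Cox8a far exceeded its muscle form Cox8b (5.03 and 2.16 CPM per kb) and its testis form Cox8c (3.47 and 3.06). Cox7b was at 63.6 and 78.9 against 1.05 and 2.20 for the testis form Cox7b2, and Cox4i1 at 455.1 and 522.9 against 1.77 and 1.19 for Cox4i2, the form of lung and low oxygen. The rare forms varied greatly between libraries. Cox8c, for example, had 0, 63 and 108 reads in the non-tuft-like and 99, 3 and 1 reads in the tuft-like libraries.

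Cox6b2, the testis form of Cox6b1, was the single rare form whose libraries were lower in tuft-like mTEC without overlap. It was counted with 397, 206 and 87 reads in the non-tuft-like and 23, 10 and 1 reads in the tuft-like libraries, which corresponds to 12.5, 4.39 and 2.77 against 0.951, 0.292 and 0.0276 CPM. The level of the last library is below the limit of 3 reads (0.0828 CPM in that library after TMM scaling). The log2 fold change was -3.95 ± 1.46 (SE, 95% confidence interval -7.20 to -0.71) with an adjusted p of 0.343 in edgeR and 0.0202 in DESeq2. Cox6b1 itself was at 154.6 to 204.4 against 159.0 to 450.2 CPM. The summed level of 6 spermatid markers was 4.51 to 8.77 CPM in non-tuft-like and 1.02 to 9.51 CPM in tuft-like libraries, and that of 13 striated muscle markers 256.9 to 376.0 against 200.3 to 306.3 CPM. The part of these cell types in the levels of the rare forms was not tested. Cox7a1 was likewise without overlap, but upward, with 27, 41 and 36 against 48, 57 and 211 reads (log2 fold change 1.72 ± 1.30 SE).

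**Figure D4:**
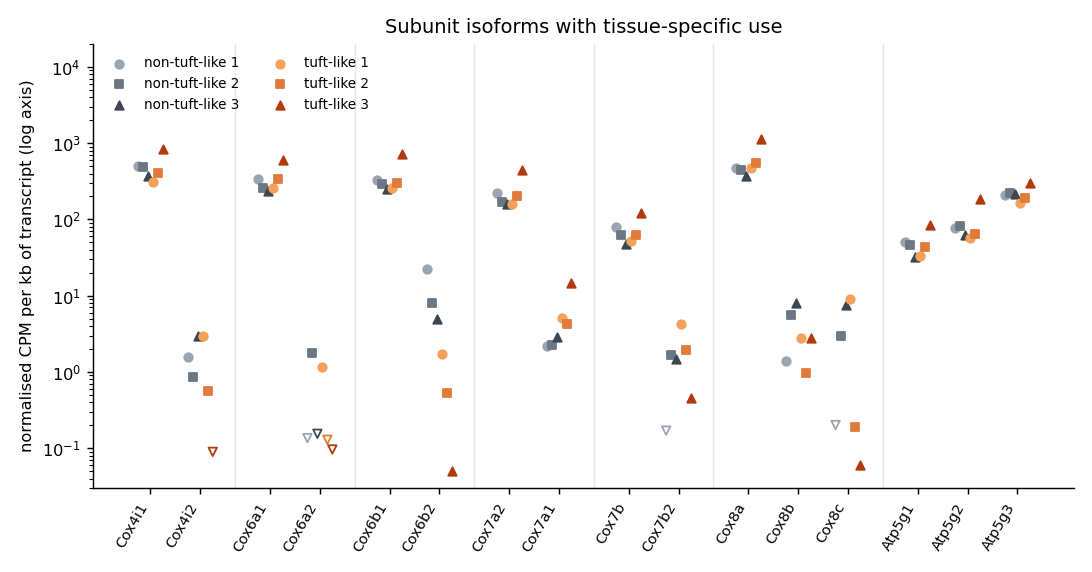
Normalised CPM per kb of transcript (y axis, log scale) in each of the 6 libraries for complex IV and ATP synthase subunits that exist in several forms (x axis, forms of a subunit side by side). Open triangles stand for libraries with 0 reads, drawn at the limit of 3 reads before TMM scaling. The broadly expressed complex IV forms lie above their muscle, lung or testis forms in every library, and Cox6b2, at 12.5 to 0.0276 CPM before division by length, has all its tuft-like below all its non-tuft-like points.

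ATP synthase showed the most uniform picture. Of its 17 nuclear genes 16 were above zero. The median log2 fold change was 0.29 within a range of -0.15 to 0.74, and 16 were below zero without tuft-like replicate 3 (median -0.19). Atp5b, the catalytic beta subunit, had the highest level per length of all nuclear subunits in non-tuft-like mTEC, 654.2 CPM per kb, and came after Cox8a in tuft-like mTEC with 694.7 CPM per kb. It was at 1387, 1316 and 1058 against 918.7, 1272 and 1803 CPM (log2 fold change 0.09, 95% confidence interval -0.73 to 0.91). Atp5k, the small subunit e, was furthest upward at 20.5 to 36.9 against 23.8 to 88.2 CPM (log2 fold change 0.74 ± 0.49 SE). Atp5f1, the peripheral stalk subunit b, was at 199.4 to 282.0 against 183.5 to 261.2 CPM, a log2 fold change of -0.15. Atp5g1, Atp5g2 and Atp5g3 encode the same mature proton-carrying subunit c from separate genes. Per kb, Atp5g3 was the highest of the 3 in both populations (215.6 and 219.4 CPM per kb), followed by Atp5g2 (73.8 and 101.3) and Atp5g1 (42.7 and 53.5), and their log2 fold changes were 0.02 ± 0.30, 0.46 ± 0.44 and 0.32 ± 0.37 (SE). Of the Atp5g2 stretches of 50 bases, 38.4% occur elsewhere in the transcript set, so its level is uncertain.

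The mitochondrial genome encodes core membrane subunits of complexes I, III and IV and membrane subunits of ATP synthase. Its 13 genes summed to 10730, 14010 and 12730 CPM in the non-tuft-like and to 13270, 12020 and 21990 CPM in the tuft-like libraries. Replicate 3 of the tuft-like libraries was again alone above the others, and it was the highest library for 12 of the 12 genes tested. Their median log2 fold change was 0.42 (11 above and 1 below zero), and -0.17 without that library (2 above and 10 below). Relative to the nuclear subunits, mitochondrial transcripts were at 0.919, 1.26 and 1.39 in non-tuft-like and at 1.5, 1.07 and 1.20 in tuft-like mTEC, with overlapping ranges.

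Of the mitochondrial genes, mt-Cytb and mt-Co1 had the highest counted levels. mt-Cytb, the cytochrome b of complex III, was at 4076, 4949 and 4549 against 4466, 4288 and 8308 CPM, and its log2 fold change of 0.33 had a 95% confidence interval of -0.69 to 1.35. mt-Co1, the catalytic subunit of complex IV, was at 3349, 4635 and 4124 against 4898, 4317 and 6955 CPM (log2 fold change 0.42, -0.55 to 1.38). Of the complex I subunits, mt-Nd1 was the highest at 1631 to 2247 against 1646 to 3178 CPM, and mt-Nd2, mt-Nd4 and mt-Nd5 were between 282.8 and 1362 CPM in every library. mt-Nd6, the gene on the other strand of the mitochondrial genome, was at 61.8 to 90.2 against 66.3 to 219.5 CPM and had the largest log2 fold change among mitochondrial genes of at least 10 CPM (0.71 ± 0.43 SE), with an adjusted p of 0.892 in edgeR.

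Other mitochondrial genes were listed at levels far below these. mt-Co2, the copper-binding subunit of complex IV, was at 2.19 to 9.78 CPM over the 6 libraries, mt-Co3 at 9.50 to 30.5, mt-Atp6 at 6.98 to 21.5 and mt-Nd3 at 1.12 to 4.20 CPM, and mt-Nd4l had 0 to 4 reads and was not tested. These 5 genes share between 98.0% and 100% of their stretches of 50 bases with annotated copies on chromosome 1, whereas mt-Cytb, mt-Nd1 and mt-Nd6 share 0%. The copies, annotated as pseudogenes, were themselves counted at low levels, with Gm28437, the copy of mt-Co3, at 37.1 to 112.5 CPM and Gm28661, the copy of mt-Co2, at 9.66 to 30.2 CPM. Reads that aligned to several places were held in a separate row of the table, at 4.01% to 5.05% of all reads. mt-Co1 and mt-Nd4, with 51.1% and 62.2% of stretches shared, kept high levels. mt-Atp8 was listed at 0.372 to 2.93 CPM and shares no stretch with another annotated transcript. The search covered annotated transcripts only, so an unannotated copy would not be seen. mt-Atp8 lies between mt-Co2 and mt-Atp6, whose annotated copies lie at chr1:24614885-24615565 and chr1:24613974-24614651. Whether the shared sequence set the low levels was not tested, and the levels of these genes cannot be read as abundance of their transcripts.

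**Figure D5:**
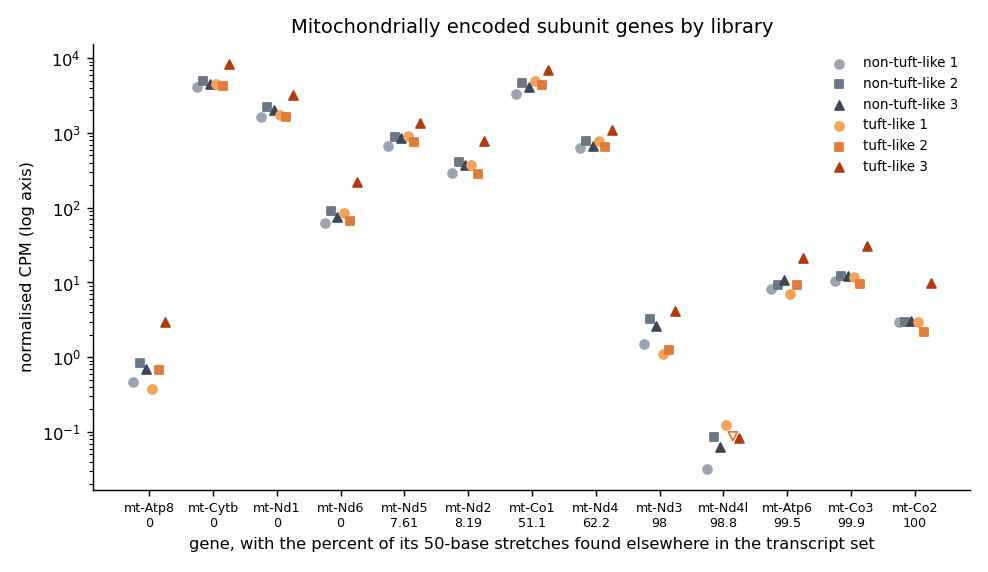
Normalised CPM (y axis, log scale) of the 13 mitochondrially encoded subunit genes in each library, ordered on the x axis by the percent of their stretches of 50 bases that occur elsewhere in the transcript set, printed under each name. The open triangle marks a library with 0 reads, drawn at the limit of 3 reads before TMM scaling. All 5 genes with 98.0% or more shared lie at or below 30.5 CPM while mt-Cytb and mt-Co1 lie at 3349 CPM or more.

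Genes around the respiratory chain were examined as lists. Among 10 further subunits and carriers that the symbol pattern misses, edgeR called 0. Their median log2 fold change was 0.24, or -0.14 without tuft-like replicate 3. They include Cox4i1 (0.20 ± 0.39 SE), Ndufab1 (0.16 ± 0.29), Cyc1 (0.04 ± 0.30) and cytochrome c itself, Cycs (0.33 ± 0.27). edgeR also called 0 genes in each of 13 other lists, namely the assembly factors of complexes I to V, the TCA cycle, glycolysis, pyruvate entry, regulators of mitochondrial biogenesis, mitochondrial DNA maintenance, oxidant defence, and both sets of ribosomal proteins. These lists of 4 to 83 genes each held between 0 and 6 genes at an unadjusted p under 0.05 in edgeR. Over all genes tested this share was 8.97%. The 6 were of 83 cytosolic ribosomal protein genes, whereas glycolysis (4 of 17) and some shorter lists held larger shares than all genes. DESeq2 called between 0 and 3 in each, beside 10.2% of the 18579 genes to which it gave an adjusted p. The 3 were of 17 in glycolysis, again a larger share. The lists are small, and these differences were not tested. limma voom called 0 or 1 in each, beside 2.78%.

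A few of these genes had larger log2 fold changes than any subunit of at least 10 CPM. Acad9, an enzyme related to fatty acid oxidation that is needed to assemble complex I, was at 182.7, 193.7 and 177.1 CPM in non-tuft-like and at 60.8, 63.8 and 118.9 CPM in tuft-like libraries (log2 fold change -1.18 ± 0.32 SE, adjusted p = 0.114 in edgeR and 0.00456 in DESeq2). Mrpl57, a protein of the mitochondrial ribosome, was at 66.8, 57.8 and 42.8 against 107.9, 133.0 and 224.4 CPM (1.48 ± 0.34, adjusted p = 0.0597 in edgeR and 0.000311 in DESeq2). Neither gene had overlapping libraries, as was so for 28.2% of all genes of at least 10 CPM. Without tuft-like replicate 3, Acad9 was at -1.60 with an adjusted p of 0.0100 in edgeR, and Mrpl57 at 1.07 with 0.107.

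Among genes that direct the use of mitochondria, Pdk4 is a kinase that shuts off pyruvate dehydrogenase, as are Pdk1, Pdk2 and Pdk3. Pdk4 was at 27.1, 17.0 and 18.5 against 5.79, 6.37 and 2.82 CPM (log2 fold change -2.06 ± 0.57 SE, adjusted p = 0.127 in edgeR and 0.00615 in DESeq2). Esrra, a nuclear receptor that drives many OXPHOS genes, was at 5.36, 9.81 and 5.82 against 10.1, 22.9 and 31.5 CPM (1.62 ± 0.59, adjusted p = 0.326 in edgeR and 0.049 in DESeq2). Ssbp1, which coats single-stranded mitochondrial DNA, was at 73.0 to 89.5 against 118.4 to 220.3 CPM (0.93 ± 0.30, adjusted p = 0.238 in edgeR and 0.0227 in DESeq2). The ranges did not overlap for any of these 3 genes, each the furthest from zero in its list among genes of at least 10 CPM. Of all genes at that level, 28.2% did not overlap in one or the other direction (16.0% of all genes tested). DESeq2 called 1677 of the 11593 genes at that level. The lists that hold Pdk4, Esrra and Ssbp1 had median log2 fold changes of 0.21 (pyruvate entry), -0.0 (regulators) and 0.11 (mitochondrial DNA maintenance). In the remaining lists the genes with the largest change were Sdhaf4 (0.61), Uqcc3 (0.89), the copper chaperone Cox17 (0.79), Atpaf2 (-0.55), Suclg2 (0.30), Aldoc (-1.41), Txnrd2 (0.91) and Rplp0 (-0.81), all with an adjusted p above 0.05 in edgeR, and in DESeq2 with the exception of Rplp0 (adjusted p = 0.043).

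The cytosolic ribosomal protein genes, which like OXPHOS subunits are abundant and of short length, had their own shift. Their 83 genes had a median log2 fold change of -0.18 (25 above and 58 below zero), and -0.70 without tuft-like replicate 3 (4 above and 79 below). The 78 mitochondrial ribosomal protein genes stood at 0.08 and -0.31. For these lists tuft-like replicate 3 exceeded the mean of replicates 1 and 2 by median factors of 2.15 and 1.62 among genes of at least 10 CPM, beside 1.91 for the nuclear OXPHOS genes, 1.53 for the TCA cycle and 1.77 for glycolysis. The rise of that library was therefore not confined to OXPHOS genes.

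The test had limited reach for single genes. For the 74 nuclear subunits of at least 10 CPM the median SE was 0.35 on the log2 scale and the median half-width of the 95% confidence interval 0.77. The interval lay within a log2 change of 1.5 in either direction for 67 of them and within 1 for 28.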

How the data were processed

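Bulk RNAseq libraries were used, 3 from tuft-like mTEC and 3 from non-tuft-like mTEC, grouped by the sample titles. Per the labels and the study's methods, cells were sorted, RNA was amplified by a SMARTer ultra-low input kit, and the authors used Trimmomatic 0.36 for trimming, STAR 2.7.3a for alignment to mm10 and HTSeq for assignment to genes (intersection-nonempty). The authors deposited raw read counts per gene without normalisation. Rows of reads assigned to no gene (19.7% to 61.6% per library), to several genes or to several places stayed out of library sizes and tests. No molecular identifiers are described, so reads may be copies of each other. Limits from 3 reads (0.0620 to 0.149 CPM before TMM scaling) therefore cover counting error only.

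Identifiers were matched to GENCODE M21 (99.72% of gene rows). Counts were tested in R 4.3.3 with edgeR 4.0.16 (filterByExpr with a minimum count of 10 and total of 15, TMM, quasi-likelihood F-test, Benjamini-Hochberg over all genes tested, FDR 0.05), and the scripts were checked on simulated counts. SE was taken as the size of the log2 fold change over the root of the F statistic. Alternatives used DESeq2 1.42.0, limma voom 3.58.1, other scaling, filters, an offset, a replicate block and each library left out. Level per kb uses the median length of principal transcripts. The subunit genes and lists were chosen with earlier results of these data known. Genes named are those at the extremes of each complex and of each list among genes of at least 10 CPM, the highest per kb, all mitochondrial genes and isoforms with tissue-specific use. Genes without overlap or with p under 0.05, and the ratios, were added after their values were seen.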

Additional observations from a re-analysis of the deposited data

How the results depend on the processing

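No subunit gene was called with RLE factors (2.41% of all genes called), without a filter (2.36%) or with mitochondrial genes left out of the totals (2.11%). The same held with the replicate block (2.27%) and without each of the 6 libraries (1.03% to 2.45%). At such shares, 0 called among the subunits is near the background. A filter of at least 10 CPM gave 3 called higher (Ndufa1, Ndufb3 and Sdha) and 1 lower (Ndufa4) with 12.9% of all genes called. DESeq2 called 1 higher (Sdha) and 1 lower (Cox6b2), with 10.2% called of the 18579 genes to which it gave an adjusted p. Scaling by library size gave 1 higher (Sdha) and 1 lower (Ndufa4) with 3.22% of all genes called. limma voom and the offset for length and GC content called 1 higher each (Sdha), with 2.78% and 2.79% of all genes called. Scaling to the summed nuclear subunit counts, an alternative chosen after seeing the data, called 1 lower (Ndufa4) with 3.01% of all genes, and centred the nuclear median at 0.02 by construction. The adjusted p of Sdha ranged from 0.000874 (DESeq2) to 0.789, and that of Ndufa4 from 0.022 to 1. The cause was not tested.

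The replicate numbers gave correlations of -0.156, -0.061 and -0.326 between deviations of same-numbered libraries and were not treated as pairs. With the replicate block 0 subunits were called, and the medians were 0.22 for nuclear and 0.30 for mitochondrial genes.

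Leaving out 1 library at a time, the nuclear median log2 fold change ranged from -0.17 to 0.55 and the mitochondrial median from -0.17 to 0.58, in each case below zero without tuft-like replicate 3 alone. Of the 91 subunits compared, 58 went from above to below zero without tuft-like replicate 3 and 1 the other way. Each library was left out in turn for the 60 genes chosen by the naming rule, and those of them that crossed zero, none of them called, ranged as follows. Over these genes and the medians, 28 of the 44 crossings came without tuft-like replicate 3. In complexes I to III they were Ndufb8 -0.33 to 0.26, Sdhb -0.40 to 0.20 and Uqcr11 -0.19 to 0.38. In complex IV they were Cox7b -0.18 to 0.54, Cox6b1 -0.11 to 0.82, Cox7a2 -0.06 to 0.83 and Cox8c -4.70 to 1.04, and in ATP synthase Atp5k -0.07 to 1.07, Atp5b -0.23 to 0.30, Atp5g1 -0.19 to 0.58, Atp5g2 -0.33 to 0.75 and Atp5g3 -0.32 to 0.20. Of the mitochondrial genes they were mt-Nd1 -0.26 to 0.32, mt-Nd2 -0.17 to 0.70, mt-Nd3 -1.10 to 0.15, mt-Nd4 -0.01 to 0.44, mt-Nd6 -0.04 to 1.01, mt-Cytb -0.09 to 0.50, mt-Co2 -0.26 to 1.09, mt-Co3 -0.17 to 0.87, mt-Atp6 -0.26 to 0.71 and mt-Atp8 -0.39 to 1.43. Of the listed genes they were Ndufab1 -0.12 to 0.32, Cox4i1 -0.38 to 0.47, Cox7a2l -0.43 to 0.17, Ndufa4l2 -0.77 to 1.16, Cyc1 -0.21 to 0.23, Atpif1 -0.28 to 0.52, Usmg5 -0.17 to 0.55 and Suclg2 -0.17 to 0.54.

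Other settings turned the sign of genes that were near zero or rarely counted. Scaling to nuclear subunit counts gave Ndufb8 -0.20, Uqcr11 -0.06, Atp5b -0.16, mt-Nd1 -0.13, Atp5g3 -0.24, Ndufab1 -0.07, Cox4i1 -0.12, Cyc1 -0.20, Atpif1 -0.01 and Suclg2 -0.00. Library size alone gave Ndufb8 -0.02, Atp5g3 -0.06 and Cyc1 -0.04, and the offset gave Sdhb 0.15, mt-Nd1 -0.05, Cox8c 0.14 and Cox7a2l 0.07. Sdhb was at 0.02 with DESeq2 and with RLE. limma voom gave Atp5g3 -0.00 and Ndufa4l2 -1.45, and the replicate block -0.03 and -1.01. Of the values of these 60 genes under an alternative, 849 kept direction and side of the threshold, 65 changed sign, and 34 kept direction and passed the threshold.

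The rare isoforms rest on few reads, and their values carry the widest intervals. The read length and strand setting are not given in the sources used here.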

Other observations

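A further relative of Ndufa4 was looked up after the values of Ndufa4 had been seen. AA467197, whose product resembles that of Ndufa4, was at 26.1, 41.8 and 28.9 CPM in the non-tuft-like and at 20.6, 19.7 and 59.3 CPM in the tuft-like libraries, with a log2 fold change of 0.04 ± 0.47 (SE) in edgeR and overlapping libraries. Ndufa4l2, another relative, had 22, 84 and 14 against 66, 39 and 0 reads.

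Among the 67 nuclear subunit genes with a promoter window, the loose NRF1 form (GCGCA, any base, GCGC) was present in 17, which included Sdha, Sdhd and Ndufa8 but neither Ndufa4 nor Sdhb. Of the 8 genes whose tuft-like libraries all lay above the non-tuft-like libraries, Sdha and Ndufa8 held this form, Cox8a and Uqcrh held CCGGAAG, and Ndufa1, Ndufb2, Ndufb3 and Cox7a1 held neither. These counts are near the shares over all 67 genes, 25.4% for the loose form and 23.9% for CCGGAAG. Of the 16 genes with CCGGAAG, all besides Cox8a and Uqcrh had overlapping libraries, Sdhb among them. A link between these letters and the levels was not tested.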
